A study of Arabidopsis thaliana with 7 samples.

Results

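SMZ, SNZ, TEM2, AGL18 and FLC are floral repressor genes, each read here by 1 probe set, and they were taken as a list of 5 named probe sets out of the 22746 on the array. The list was not drawn up by a cut on measured values, but it was chosen with earlier results of these data known. The probe sets are 251811_at for SMZ (AT3G54990), 267010_at for SNZ (AT2G39250), 260037_at for TEM2 (AT1G68840, also named RAV2), 251623_at for AGL18 (AT3G57390) and 250476_at for FLC (AT5G10140). The platform annotation used here names 3 of them, SMZ, SNZ and AGL18. The names of the TEM2 and FLC probe sets rest on the member list alone. Total RNA of whole Arabidopsis thaliana seedlings was hybridised to 7 one-colour arrays, and the seedlings were 7 days past germination at 21 °C under a cycle of 16 h light and 8 h dark. The groups were soc1-101D (a gain-of-function allele of the flowering promoter SOC1 in the Col background, early flowering, 3 arrays), soc1-2 (a knock-out allele of SOC1 in the Col background, late flowering, 1 array) and Col (wild type, 3 arrays). Each mutant is represented by 1 allele, and how many seedlings were pooled for an array is not stated in the labels.

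Flowering in Arabidopsis is held back by several families of transcription factors, which keep the florigen gene FT and the integrator SOC1 low until day length, temperature and age favour flowering. SMZ and SNZ belong to the AP2-type family, whose messages are targets of the microRNA miR172 and which repress FT. TEM2 belongs to the RAV family, which also represses FT. AGL18 and FLC are MADS-box factors, and FLC is the central repressor of the vernalization pathway, repressing FT and SOC1. SOC1 is itself a MADS-box factor.

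The 7 arrays fell into 3 numbered experiments, each with 1 soc1-101D and 1 Col array, and soc1-2 was in experiment 3. Arrays of different experiments stood apart: the correlation across tested probe sets was 0.954 to 0.983 within an experiment and 0.824 to 0.929 between experiments. No probe set was paired with SOC1 in the annotation, so its level was not checked and the genotype of each array is taken from its label. As a check of the tissue, the green tissue markers RCA, LHCB4.1 and LHCB4.2 were measured on all arrays (summed signal 56138 to 95202). The root markers PYK10, EXPA7 and EXPA18 were measured too (13711 to 22954, of which PYK10 alone 13114 to 22022). The seed and flower markers were not named in the annotation used. None of the 6 measured markers passed in soc1-101D against Col. In soc1-2 against Col no tested probe set passed, so that test says nothing about the markers. LHCB4.2 and PYK10 differed between experiments (F test of the experiment term, limma adjusted p = 0.00471 and 0.0499), as did 51.6% of the tested probe sets. The other measured markers did not pass that test. In RNA of whole seedlings, fewer cells that express a gene and less RNA per cell cannot be told apart.

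The first comparison asked whether the repressor genes differed when SOC1 was overactive. TEM2 and SMZ fell in soc1-101D, by 3.76-fold and 2.86-fold. AGL18 and SNZ were lower than Col in each of the 3 experiments but did not reach the brightness filter of the reported test, and FLC showed no single direction. In all, 4 of the 5 genes were lower in soc1-101D in each experiment, which held for 15.2% of all 22746 probe sets. For 3 of them (SMZ, TEM2 and AGL18) the soc1-101D and Col signals did not overlap, with soc1-101D lower, as was the case for 2.43% of all probe sets. Of the 3 genes bright enough to be tested, 2 fell (limma, adjusted p under 0.05), against 0.271% of the 13648 probe sets tested. The brightness filter took the mean over all 7 arrays. SMZ lay at percentiles 54.4 to 75.9 on the Col and soc1-2 arrays but at 30.9 to 43.4 in soc1-101D. Its entry to the test thus leaned on the groups where it was high. The SMZ call was lost with weaker filters (limma adjusted p = 0.268 and 0.479). The median log2 difference over the 5 genes was -1.18, beside -0.01 over all probe sets. The genes were chosen with earlier results of these data known, so these shares describe the genes and do not test them as a group.

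**Figure D1:**
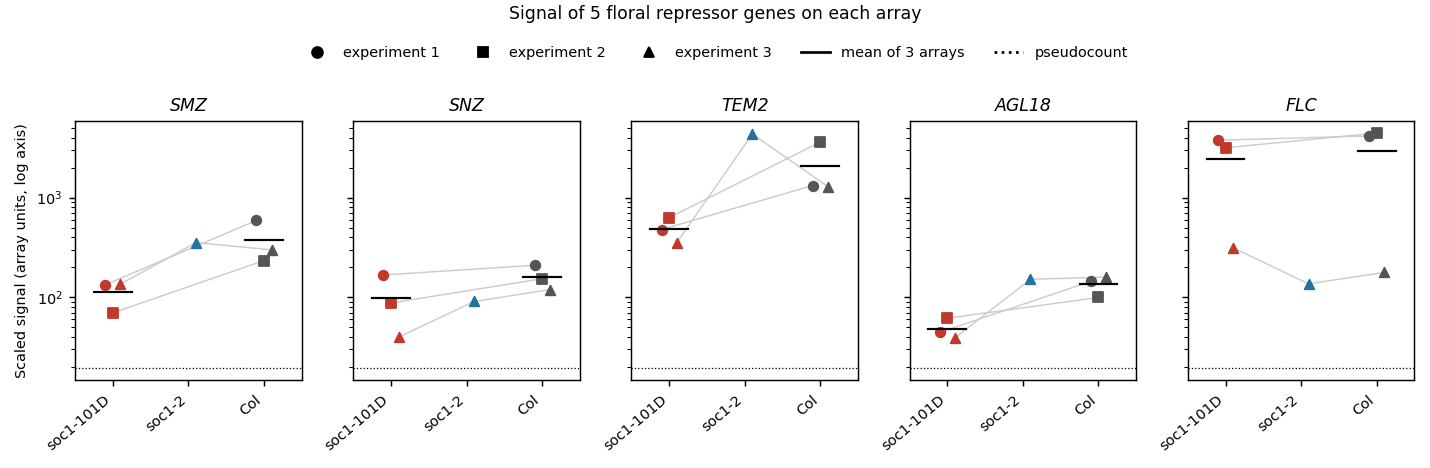
Scaled signal (log axis, array units) of the 5 genes on each of the 7 arrays, by genotype; marker shapes give the experiment, grey lines join arrays of 1 experiment, black bars are means of 3 arrays and the dotted line is the pseudocount of 19.3. SMZ, TEM2 and AGL18 lie lower on every soc1-101D array than on any Col array, and FLC splits by experiment instead of genotype.

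Of the AP2-type genes, SMZ read 133, 69.5 and 135 on the soc1-101D arrays of experiments 1, 2 and 3, against 590, 233 and 299 on the Col arrays (signals scaled to a common array median of 192.7). Its lowest Col signal was 1.73 times its highest soc1-101D signal. SMZ was lower by 4.44-fold, 3.35-fold and 2.22-fold in experiments 1, 2 and 3, and Col itself was highest in experiment 1. The fitted log2 difference was -1.52 ± 0.20 (limma SE, 95% interval -1.98 to -1.06, limma adjusted p = 0.0279), where the 3 paired differences had an SD of 0.48. It lay at place 18 from the lowest among all tested probe sets. SMZ did not pass without experiment 1 (log2 difference -1.28, limma adjusted p = 0.0903), nor with quantile normalization, a weaker filter on dim probe sets or no experiment block (adjusted p = 1.00; limma, 0.00923 to 1.00 over all settings).

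SNZ, the closest relative of SMZ in the list, read 167, 87.2 and 39.6 on the soc1-101D arrays of experiments 1, 2 and 3, against 209, 153 and 119 on the Col arrays. The groups overlap, since the soc1-101D array of experiment 1 lies above the Col arrays of experiments 2 and 3. Within each experiment the soc1-101D signal was the lower one, by 1.26-fold, 1.75-fold and 3.00-fold. The log2 differences of -0.30, -0.69 and -1.23 had a mean of -0.74 and an SD of 0.47 (n = 3 experiments). SNZ did not reach the brightness filter, which left out the dimmest 40% of probe sets by mean log2 signal, and was not tested. It was bright enough after quantile normalization, where its limma adjusted p was 0.237. With no such filter its limma adjusted p was 0.613, in a fit where no probe set passed (smallest adjusted p 0.456, 1714 probe sets at an unadjusted p under 0.05).

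TEM2, a RAV-type repressor, read 478, 629 and 352 on the soc1-101D arrays of experiments 1, 2 and 3, against 1322, 3611 and 1289 on the Col arrays. Every soc1-101D signal was below every Col signal, and the lowest Col signal was 2.05 times the highest soc1-101D signal. The reductions were 2.77-fold, 5.74-fold and 3.67-fold in experiments 1, 2 and 3, the widest in experiment 2, where Col was 2.80 times as high as in experiment 3. The fitted log2 difference was -1.91 ± 0.21 (limma SE, 95% interval -2.40 to -1.42, limma adjusted p = 0.0162), with an SD of 0.53 over the 3 pairs. It was at place 7 from the lowest of the tested probe sets. TEM2 passed with any 1 experiment left out (limma adjusted p 0.00655 to 0.0250) but not with quantile normalization (0.0615), a weaker filter or no experiment block (1.00).

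Of the MADS-box genes, AGL18 read 44.2, 61.4 and 38.9 on the soc1-101D arrays of experiments 1, 2 and 3, against 144, 99.2 and 159 on the Col arrays. The groups did not overlap, and the lowest Col signal was 1.61 times the highest soc1-101D signal. AGL18 was lower by 3.26-fold, 1.61-fold and 4.07-fold, with a mean log2 difference of -1.18 and an SD of 0.55 (n = 3 experiments). The pseudocount makes the log2 differences of so dim a gene smaller than the plain ratios. AGL18 was also left out of the test for low signal. With no filter its limma adjusted p was 0.523, and with the lowest 20% left out it was 0.36. In both of these fits no probe set passed.

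FLC read 3770, 3168 and 313 on the soc1-101D arrays of experiments 1, 2 and 3, against 4164, 4448 and 177 on the Col arrays. In experiments 1 and 2 FLC was slightly lower in soc1-101D (log2 differences -0.14 and -0.49), and in experiment 3 it was 1.76 times as high as in Col (log2 difference 0.76). The 3 values average 0.04 with an SD of 0.64, and limma gave an adjusted p of 0.974 with a 95% interval of -0.51 to 0.59. The interval is for the mean difference, not for single pairs. It allows a mean difference from -0.51 to 0.59, so it does not show that FLC was alike in both genotypes. Its limma SE of 0.24 draws in part on the spread of the other probe sets, so the interval may be too narrow for FLC.

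**Figure D2:**
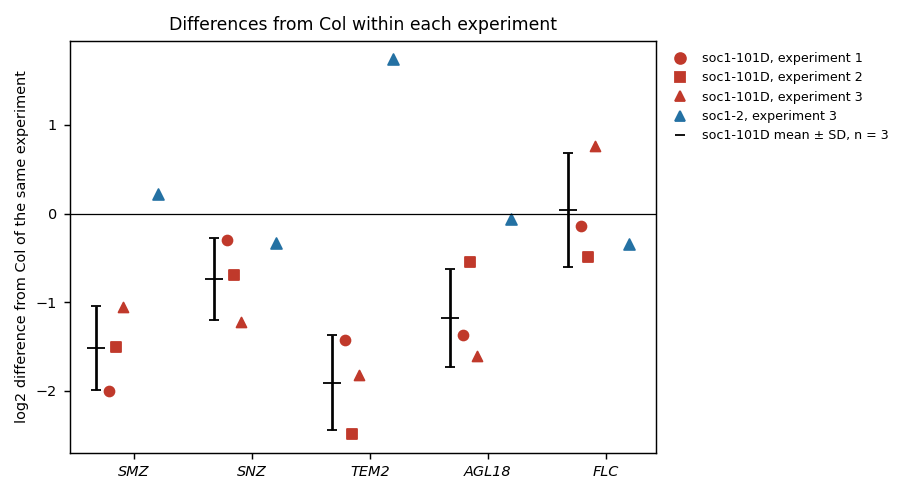
Log2 difference from the Col array of the same experiment for each gene, with soc1-101D in red (shape gives the experiment; black bar, mean ± SD of 3 experiments) and soc1-2 in blue (1 array, experiment 3). TEM2 lies between -2.49 and -1.43 in soc1-101D and at 1.74 in soc1-2, while FLC in soc1-101D lies on both sides of 0.

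The genes did not fall most in the same experiment. The reduction was widest in experiment 1 for SMZ (4.44-fold), in experiment 2 for TEM2 (5.74-fold), and in experiment 3 for SNZ (3.00-fold) and AGL18 (4.07-fold). Over the 7 arrays the log2 values of SMZ and AGL18 correlated at r = 0.82, those of TEM2 and AGL18 at r = 0.78 and those of SMZ and TEM2 at r = 0.61. SNZ correlated with SMZ at r = 0.50 and with FLC at r = 0.60. The 7 arrays share experiments and genotypes, so these values describe the arrays only.

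The next question was whether loss of SOC1 moved the repressor genes too. On the single soc1-2 array TEM2 stood out among the 5, with a signal of 4353 against 1289 on the Col array of experiment 3, which is 3.38 times as high. The other members lay closer to Col. SMZ read 353 on the soc1-2 array against 299 on Col of experiment 3, and AGL18 read 151 against 159. SNZ read 90.4 on the soc1-2 array against 119 on Col, and FLC read 136 against 177. The plain log2 difference of FLC within experiment 3 was -0.34, beside -0.70 in the fit to all 7 arrays. Of the 3 tested genes, 1 (TEM2) was at least 2-fold higher within experiment 3, as were 0.674% of the tested probe sets. The median log2 difference over the 5 genes was -0.06, beside -0.01 over all probe sets.

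For TEM2 the plain log2 difference within experiment 3 was 1.74, and the fitted one was 1.69 ± 0.33 (limma SE, 95% interval 0.92 to 2.47). It was the 18th highest of the tested probe sets, and its unadjusted limma p of 0.0011 became an adjusted p of 0.483. In that fit 0% of the tested probe sets passed, so none of the 3 tested members did (387 were at an unadjusted p under 0.05). TEM2 passed in 1 alternative, without experiment 2 (log2 difference 1.84, limma adjusted p = 0.0281, over all settings 0.0281 to 1.00). The soc1-2 signal of TEM2 was 1.21 times the highest Col signal, that of experiment 2, so its distance from wild type was small against that array. The limma intervals for SMZ (-0.74 to 0.72) and FLC (-1.57 to 0.17) in soc1-2 were wider than those in soc1-101D, and the fit assumes the same spread for soc1-2 as for the other groups.

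The third comparison set the mutants against each other. TEM2 was lower in soc1-101D than in soc1-2 by 12.2-fold in the fit (log2 difference -3.61 ± 0.33, limma SE, 95% interval -4.38 to -2.83, limma adjusted p = 0.0230). Within experiment 3 it read 352 in soc1-101D against 4353 in soc1-2, a ratio of 12.4, with the Col signal of 1289 between them. This was the 3rd lowest difference of all tested probe sets, and TEM2 was 1 of 4 probe sets that were called lower (0.0293% of those tested). The call was lost with values as deposited (limma adjusted p = 0.0538), with quantile normalization (0.150), with a weaker filter and with no experiment block (1.00), while the log2 difference stayed between -3.73 and -3.15 in all settings. It was kept without experiment 1 and without experiment 2.

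SMZ read 135 in soc1-101D against 353 in soc1-2 within experiment 3, with a fitted log2 difference of -1.51 ± 0.31 (limma SE, limma adjusted p = 0.265), and FLC read 313 against 136 (0.74 ± 0.37, limma adjusted p = 0.935). AGL18 read 38.9 in soc1-101D against 151 in soc1-2, and SNZ 39.6 against 90.4. Within experiment 3, 4 of the 5 genes were lower in soc1-101D than in soc1-2, as were 45.8% of all probe sets, and FLC was higher. The comparisons with soc1-2 rest on 1 soc1-2 array and also use arrays of experiment 3 that enter the first comparison. Their fitted values draw on all 7 arrays, so they can differ from the gap within experiment 3. For FLC the plain ratio of soc1-101D over soc1-2 was 2.31, beside 1.67-fold in the fit.

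**Figure D3:**
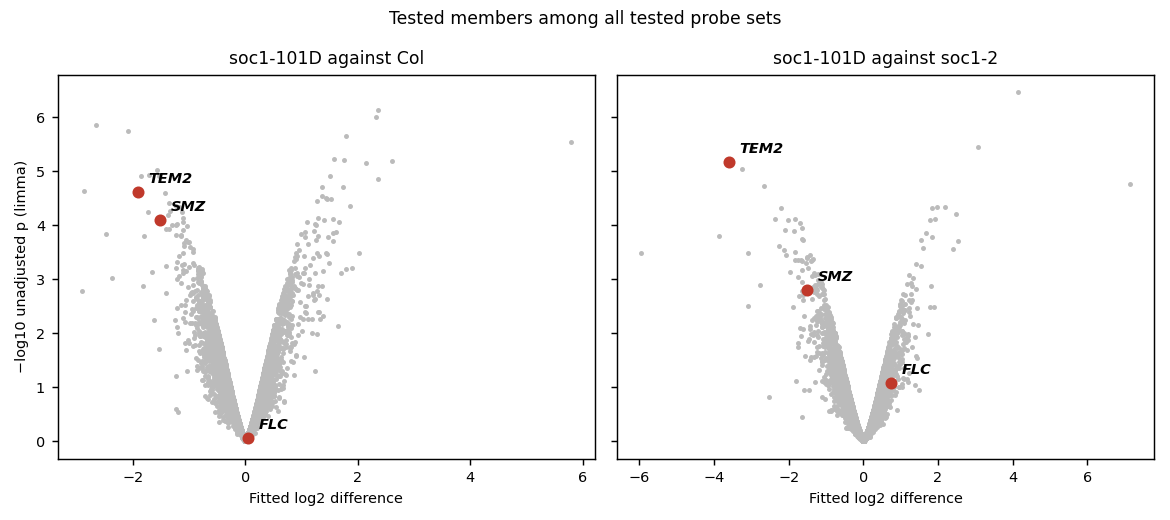
Fitted log2 difference against −log10 of the unadjusted limma p for all 13648 tested probe sets (grey) and the 3 tested members (red), for soc1-101D against Col on the left and soc1-101D against soc1-2 on the right. TEM2 and SMZ lie on the lower side in both panels, at -1.91 and -1.52 on the left and -3.61 and -1.51 on the right, and FLC lies near 0 on the left.

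The 3 tested members also differed between the 3 experiments, FLC by the widest margin of the 3. FLC was 15.2-fold lower in experiment 3 than the mean of experiments 1 and 2 (log2 difference -3.92 ± 0.25, limma SE; F test of the experiment term, limma adjusted p = 0.000178). The fall was present in both genotypes: soc1-101D of experiments 1 and 2 was 12.1 and 10.1 times as high as soc1-101D of experiment 3, and Col was 23.5 and 25.1 times as high. On the 4 arrays of experiments 1 and 2 FLC ranked at percentiles 96.0 to 97.4 of all probe sets, and on the 3 arrays of experiment 3 at 43.5 to 60.4. The difference was at place 11 from the lowest of the 13648 tested probe sets, whose median absolute difference was 0.38. FLC was called for the experiment term under every alternative that kept experiment 3 and the experiment block.

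Natural accessions with active FRI and FLC alleles have high FLC, and Col is known as an accession with low FLC that flowers rapidly without cold. The labels name Col as the wild type or background throughout and give the same age, light and temperature for all 7 arrays, and the Col array of experiment 3 has no strain entry beside its title. What set the FLC level apart between the experiments was not tested. Of the regulators of FLC that the annotation names, LD, of the autonomous pathway, read 250, 254 and 341 in soc1-101D and 316, 213 and 335 in Col of experiments 1, 2 and 3. FY, an RNA-processing factor of the same pathway, read 324, 143 and 192 in soc1-101D and 224, 290 and 164 in Col. Neither passed the experiment test (limma adjusted p = 0.14 for LD and 0.328 for FY).

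**Figure D4:**
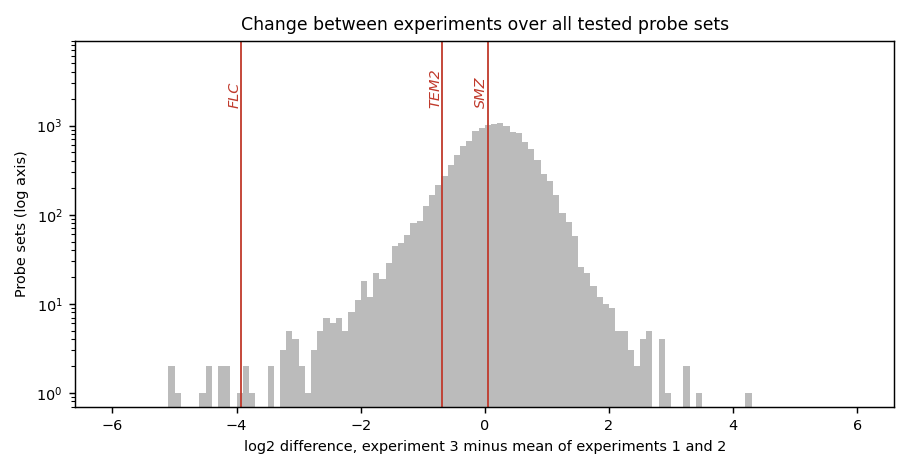
Number of tested probe sets (log axis) by log2 difference of experiment 3 from the mean of experiments 1 and 2, with the 3 tested members as red lines. FLC lies at -3.92, in the low tail, whereas TEM2 (-0.68) and SMZ (0.05) lie within the bulk.

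All 3 tested members passed the experiment test, as did 51.6% of the tested probe sets, so passing it did not set them apart. TEM2 and SMZ varied less than FLC. Col of TEM2 ranged 2.80-fold over the experiments and soc1-101D 1.79-fold (limma adjusted p = 0.0175 for the experiment term). For SMZ the ranges were 1.94-fold in soc1-101D and 2.53-fold in Col (limma adjusted p = 0.0257). The experiment calls were lost without experiment 2 for TEM2 (limma adjusted p = 0.372), and for SMZ without experiment 1 (0.0747) or experiment 2 (0.145). Of the genes not tested in the reported fit, SNZ was highest in experiment 1 and lowest in experiment 3 in both genotypes, with a range of 4.21-fold in soc1-101D and 1.76-fold in Col. With quantile normalization SNZ was tested and passed for the experiment term (limma adjusted p = 0.0238), and with weaker filters it did not (0.0582 and 0.0918). AGL18 ranged 1.58-fold in soc1-101D and 1.60-fold in Col. The fold between the genotypes was wider in experiments 1 and 3 (3.26 and 4.07) but about the same in experiment 2 (1.61). AGL18 did not pass for the experiment term with weaker filters (limma adjusted p = 0.98 and 0.983).

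Few other genes of the pathway could be read by name. None of 14 close relatives of the repressors (such as AP2, TOE1, TEM1, AGL15, FLM and SVP) was named in the annotation used, which does not show that the array lacks them. Of 31 regulators of FLC, 2 (FY and LD) were named and tested, and neither passed in soc1-101D (log2 differences -0.08 ± 0.26 and -0.02 ± 0.16, limma SE, limma adjusted p = 0.956 and 0.983). Their median log2 difference was -0.05, beside -0.02 over the tested probe sets. On the soc1-2 array FY differed from Col of experiment 3 by 0.43 and LD by -0.73.

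Of 25 genes that the repressors act on or that otherwise promote flowering, 3 were named. Of these, 1 was bright enough to be tested, the clock-linked flowering regulator GI. GI had a log2 difference of -0.15 ± 0.17 in soc1-101D (limma SE, limma adjusted p = 0.81), and it differed between experiments (limma adjusted p = 0.000386). It read 458, 2348 and 840 in soc1-101D and 399, 3001 and 1032 in Col of experiments 1, 2 and 3, and 1014 in soc1-2. GI and TEM2 were both highest in experiment 2 within each of these genotypes. FD, which encodes the partner of the FT protein, and the MADS-box gene AGL24 were dim, with signals of 4.37 to 89.0 and 3.00 to 31.9 over the arrays, and were not tested.

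The 3 named genes most like each member were found by the Pearson correlation of log2 values over the 7 arrays, among 7275 tested probe sets with 1 gene. For SMZ they were AT1G29660 (r = 0.992), the methionine sulfoxide reductase gene MSRB6 (r = 0.989) and AT5G48970 (r = 0.973). AT1G29660 and MSRB6 fell in soc1-101D as SMZ did (log2 differences -1.11 and -1.15, limma adjusted p = 0.0330 and 0.0354). For TEM2 they were AT1G49570 (r = 0.967), AT1G55760 (r = 0.962) and AT2G14900 (r = 0.936), with smaller log2 differences of -0.42, -0.60 and -0.79 in soc1-101D and of 0.47, 0.49 and 0.35 in soc1-2. For AGL18 they were AT4G35030 (r = 0.953), AT3G14220 (r = 0.948) and AT1G72500 (r = 0.946), of which AT3G14220 fell in soc1-101D (log2 difference -1.12, limma adjusted p = 0.0237).

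For SNZ the 3 were AT3G09320 (r = 0.963), AT2G48080 (r = 0.953) and AT5G45410 (r = 0.940), none past the test in soc1-101D. The genes most like FLC followed the experiments: the plastid gene psbF, which encodes a subunit of photosystem II (r = 0.991), AT1G66100 (r = 0.990) and AT3G16800 (r = 0.990). Their log2 differences between experiment 3 and the mean of experiments 1 and 2 were -0.70, -3.17 and -1.55. With 7 arrays in 3 experiments, high values of r are reached by many probe sets, so these are descriptions of the arrays.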

How the data were processed

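The values deposited by the authors are linear intensities, 1 for each probe set on each of 7 arrays. The trimmed means of the deposited intensities lay between 495.5 and 496.2, so arrays had been scaled to a common level; no source used here names the software. The members, lists and tests were chosen with earlier results of these data known.

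Each array was scaled to the median of 192.7, and log2 was taken after adding a pseudocount of 19.3 (0.1 times that median), so fold changes of dim genes are understated. The lowest 40% of probe sets by mean log2 were left out, which left 13648 of 22746. Models with genotype and experiment number as fixed terms were fitted to all 7 arrays with limma 3.58.1 in R 4.3.3 (lmFit, eBayes), with Benjamini-Hochberg adjustment over all tested probe sets. The fit left 2 residual degrees of freedom, to which the prior added 5.62, and the steps were tested on simulated data.

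The experiment block follows the labels, which name the Col array of each experiment as baseline; deviations from the group mean correlated at 0.85, 0.74 and 0.82 between paired arrays. The labels do not say that experiments were separate plantings, so the p-values reflect only the variation among these arrays, part of which may be technical. The number of arrays limits the precision. Genes were named from the platform annotation (13513 probe sets with 1 gene, 503 with several, 8730 with none) and updated through RefSeq (TAIR10.1). Named were the members, the 3 genes most like each by correlation, and the members of 3 pathway lists that the annotation named.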

Additional observations from a re-analysis of the deposited data

Results flagged for a closer look

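TEM2 differed between the mutants: soc1-101D minus soc1-2 was -3.61 on the log2 scale (limma adjusted p = 0.0230), with soc1-101D below Col in 3 of 3 experiments and soc1-2 above Col on its single array. FLC moved in opposite directions between experiments, with soc1-101D minus Col at 0.76 in experiment 3 and at -0.14 and -0.49 in experiments 1 and 2. This difference between experiments was not tested, since each holds 1 pair. It coincided with FLC signals of 313 in soc1-101D and 177 in Col in experiment 3, against at least 3168 on the 4 arrays of experiments 1 and 2. The part of the experiment level in it was not tested.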

How the results depend on the processing

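All alternatives were planned, settings are counted with the reported one, and the cause of each change was not tested. In soc1-101D against Col, SMZ stayed lower in 13 of 13 settings (log2 difference -1.75 to -1.12) and TEM2 in 13 of 13 (-2.15 to -1.63). Both lost the call with quantile normalization (SMZ -1.54, adjusted p = 0.0827; TEM2 -1.88, 0.0615), with no filter and with the lowest 20% left out (-1.52 and -1.91 in both, fewer dim probe sets removed), and with no replicate block (-1.52 and -1.91, adjusted p = 1.00). Without one experiment SMZ lay between -1.75 and -1.28 and lost the call without experiment 1. FLC, never called, changed sign with a pseudocount of 0.5 times the median (-0.01) and, leaving out an experiment, ranged from -0.31 (without experiment 3) to 0.31 (without experiment 2).

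The number of probe sets called in soc1-101D against Col was 74 and became 19 with quantile normalization, 49 and 175 with pseudocounts of 0.02 and 0.5 times the median, 0 with no filter, 0 with the lowest 20% left out (1637 at an unadjusted p under 0.05), 0 with no replicate block (222 unadjusted) and 170 with an intensity trend. Leaving out an experiment gave 26 (experiment 1) to 129 (experiment 3). Leaving out the soc1-2 array changed nothing in this comparison, by construction.

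In soc1-2 against Col the count of 0 became 14 with the larger pseudocount, 6 with the trend, and 0 without experiment 1 to 26 without experiment 2. TEM2 passed in 1 of 11 settings and lay between 1.57 and 1.84 with 1 experiment left out. SMZ, near 0, changed sign to 0.01 (values as deposited, and the larger pseudocount), 0.02 (no replicate block) and 0.11 (without experiment 1; -0.02 without experiment 2). SNZ moved to -0.68 with no replicate block.

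In soc1-101D against soc1-2 the count of 7 became 1 with quantile normalization, 3 with values as deposited, 33 with the larger pseudocount, 33 with the trend, 0 with no filter, 0 with the lowest 20% left out and 0 with no replicate block, and it was 13 to 55 with an experiment left out. TEM2 kept its sign in 11 of 11 settings and passed in 6. It lost the call with quantile normalization (-3.55), values as deposited (-3.60, adjusted p = 0.0538), no filter (-3.61), the lowest 20% left out (-3.61) and no replicate block (-3.15). SNZ moved to -0.06 with no replicate block, and AGL18 to -0.75 with the larger pseudocount.

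For the experiment term the count of 7044 became 2317 with no filter and 3536 to 6113 with an experiment left out (3942 without experiment 3). FLC passed in 11 of 11 settings that kept experiment 3 and the experiment block. SMZ lost the call with quantile normalization (experiment 3 minus experiments 1 and 2, 0.08), no filter (0.05) and the lowest 20% left out (0.05), and changed sign to -0.10 with values as deposited and to -0.01 with the larger pseudocount. With an experiment left out SMZ was -0.46 to 0.57 and not called. TEM2 lost the call with no filter (-0.68) and the lowest 20% left out (-0.68), and lay between -1.14 and -0.23 with an experiment left out. Without experiment 3 no comparison with soc1-2 or with experiment 3 could be fitted. SNZ and AGL18 did not reach the filter in the reported fit. SNZ was tested with quantile normalization, where it passed for the experiment term (adjusted p = 0.0238) and not in soc1-101D against Col (0.237).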
